A study of Homo sapiens with 5 samples.

Results

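CpG island shores are the 2000 bases on either side of a CpG island, and 30080 of the 288391 windows of 1000 bases measured by reduced representation bisulfite sequencing (RRBS) were annotated as shores in the deposited table, which is 10.4% of all windows. No measured value entered the choice, although earlier results of these data were known when it was made. Every annotated window was kept, in all 8 gene sections of the table. DNA came from human iPSCs of the 201B7 line, an established pluripotent stem cell line that the labels give as wild type and that is derived from 1 clone. The paper's screen and methylation array used 201B7 cells with a transgene for a fluorescent methyl-CpG-binding protein (mCherry-MBD-nls). Its RRBS methods do not state whether the cells carried that transgene. Cells were exposed for 48 h to 0.1% DMSO (the vehicle control), to 1 nM etoposide, to 1 µM propyl gallate, to 1 µM theophylline or to 10 nM 5-aza-dc. Each condition had 1 library, so there was no spread between replicates, no test between conditions was possible, and an effect of a chemical cannot be told apart from a difference between cultures or libraries. The methylation tables hold no expression, so the cell type was not checked against markers.

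A CpG island is a stretch rich in CpG, the dinucleotide at which vertebrate DNA is methylated, and many islands at gene starts stay free of methylation. Shores lie where the free island meets the methylated rest of the genome, and they are known for differences in methylation between tissues and between pluripotent and differentiated cells. DNMT3A and DNMT3B set methylation, DNMT1 with UHRF1 copies it to the new strand after replication, and TET enzymes oxidise it. 5-aza-dc (5-aza-2′-deoxycytidine) is built into DNA and traps DNMT enzymes. Etoposide inhibits topoisomerase II, propyl gallate is an antioxidant food additive, and theophylline is a methylxanthine that inhibits phosphodiesterases.

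The β-value of a window is the share of its CpG calls that were methylated, given here in percent, and a call is 1 CpG read once. Shore windows held between 17799324 and 21548749 calls per library, with a median of 427 to 527 calls per window, and 82.1% of them had at least 100 calls in all 5 libraries. Intervals below are 95% binomial counting intervals. They treat every call as independent, although several calls can come from the same read and reads carried no molecular identifiers. These intervals cover counting error only, and they may be too narrow even for that. All 30080 windows overlapped a shore interval of 2000 bases. A measured island joined exactly 1 end of that interval for 25719 windows and both ends for 64, and for 4297 the island itself had no window here.

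Intergenic shores were the most numerous with 10425 windows, followed by 6131 intron, 5023 intron-exon boundary, 3639 upstream (1 to 5 kb before a gene), 3240 promoter, 893 3′ untranslated, 693 exon and 36 5′ untranslated windows. Promoter windows were assigned to 3036 genes at a median distance of 387.5 bases from the gene, and upstream windows to 3106 genes at a median of 1944 bases.

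To show what the classes look like as sequence, 150-base stretches before the gene start were taken from RefSeq promoters (GRCh38.p14) that lay wholly inside a promoter shore window. These are the 2 most deeply called such windows in each of 3 level classes and the HOXC4 promoter, with every CG in capitals, each read in the direction of its gene. The β-value belongs to the whole window of 1000 bases.

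ACBD3, chr1:226186837-226186986, minus strand, β-value under 10%: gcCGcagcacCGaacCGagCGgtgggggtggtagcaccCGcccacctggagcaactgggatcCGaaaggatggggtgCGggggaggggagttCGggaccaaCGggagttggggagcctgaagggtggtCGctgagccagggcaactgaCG
LINC02558, chr22:31970624-31970773, plus strand, β-value under 10%: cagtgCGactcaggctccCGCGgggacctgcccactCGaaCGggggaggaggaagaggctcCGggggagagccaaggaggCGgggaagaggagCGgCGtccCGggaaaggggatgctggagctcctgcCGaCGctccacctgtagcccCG
HOXC4, chr12:54016648-54016797, plus strand, β-value under 10%: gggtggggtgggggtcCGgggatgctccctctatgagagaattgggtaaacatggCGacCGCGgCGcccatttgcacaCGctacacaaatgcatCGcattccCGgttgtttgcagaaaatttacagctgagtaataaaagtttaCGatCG
SMIM24, chr19:3480531-3480680, minus strand, β-value 30 to 70%: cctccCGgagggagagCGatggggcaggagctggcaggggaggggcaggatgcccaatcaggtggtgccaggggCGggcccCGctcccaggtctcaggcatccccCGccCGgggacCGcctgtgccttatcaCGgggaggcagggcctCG
LINC02043, chr3:186825622-186825771, minus strand, β-value 30 to 70%: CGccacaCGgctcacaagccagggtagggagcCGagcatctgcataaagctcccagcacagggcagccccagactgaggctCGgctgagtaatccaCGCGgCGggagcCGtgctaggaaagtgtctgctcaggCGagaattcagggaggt
CECR7, chr22:17036414-17036563, plus strand, β-value at least 90%: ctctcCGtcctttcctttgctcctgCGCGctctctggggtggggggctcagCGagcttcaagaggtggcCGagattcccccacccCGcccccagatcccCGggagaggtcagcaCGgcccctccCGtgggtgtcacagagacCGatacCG
UBE2U, chr1:64203456-64203605, plus strand, β-value at least 90%: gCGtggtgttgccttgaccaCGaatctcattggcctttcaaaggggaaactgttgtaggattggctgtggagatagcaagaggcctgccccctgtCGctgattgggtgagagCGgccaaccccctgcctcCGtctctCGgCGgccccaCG

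The class of each stretch follows the mean of the 5 libraries. The window of ACBD3, a Golgi adaptor protein, had a β-value of 0.560% in the vehicle control, 1.31% under etoposide, 1.57% under propyl gallate, 1.07% under theophylline and 0.661% under 5-aza-dc. The window of SMIM24 had β-values of 73.9%, 72.1%, 68.2%, 71.7% and 63.1% in the same order. The window of UBE2U, a ubiquitin-conjugating enzyme, had 91.9%, 91.6%, 91.6%, 89.9% and 87.7%. In the SMIM24, UBE2U, LINC02558 and LINC02043 windows 5-aza-dc gave the lowest value. In the ACBD3 and CECR7 windows the vehicle control did, and in the HOXC4 window propyl gallate did. The CECR7 window, the more deeply called of its class, had 88.4% in the vehicle control and 91.2% under 5-aza-dc. The stretches held 11 CG for ACBD3, 13 for LINC02558, 10 for HOXC4, 9 for SMIM24, 9 for LINC02043, 11 for CECR7 and 8 for UBE2U.

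CG content went with the level over the wider set. Of 35116 RefSeq promoters of 300 bases (250 before and 50 after the start), 495 lay wholly in a shore window. The 152 of them in windows with a mean β-value under 10% held a median of 14 CG, the 30 at 10 to 30% a median of 10, and the 60, 138 and 115 at 30 to 70%, 70 to 90% and at least 90% a median of 8 each, beside a median of 14 over all 35116. The G and C content differed little, from 56.5% to 59.0% across the 5 level classes. The letters CCGG, which the RRBS enzyme MspI cuts and which read the same on both strands, were present in 75.6% of the 495 promoters and in 63.1% of all promoters in the table. The 495 were limited to windows measured with that enzyme and the full set was not, so these shares do not compare shores with other promoters. These promoters often share an island, and the counts are a description.

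Shores were mostly methylated, with a minority under 10% that was more frequent in promoter shores than in shores as a whole. The mean β-value of shore windows was 82.1% (82.0 to 82.1) in the vehicle control, 82.5% under etoposide, 82.6% under propyl gallate, 83.0% under theophylline and 80.8% under 5-aza-dc. The 5-aza-dc library was the lowest of the 5 and the theophylline library the highest. In the vehicle control the mean lay between that of islands (41.5%) and those of shelves (86.9%), the next 2000 bases outward, and of windows away from islands (88.1%). By the mean of the 5 libraries, 57.0% of shore windows were at least 90% methylated, 29.8% were between 70 and 90%, 5.89% between 30 and 70%, 2.63% between 10 and 30% and 4.73% under 10%. Of the 1423 shore windows under 10%, 384 were promoter, 323 intron-exon boundary, 266 intron and 248 intergenic windows. Islands held 47.8% of their windows under 10% and 29.2% at 90% or more.

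Among the gene sections, promoter shores had a mean β-value of 71.7% (71.7 to 71.8) in the vehicle control, the lowest of the 7 sections with more than 36 windows. Their values in the other libraries were 72.2% under etoposide, 72.3% under propyl gallate, 72.5% under theophylline and 70.2% under 5-aza-dc. Intron-exon boundary shores followed with 80.3% in the vehicle control, exon shores with 80.7%, 3′ untranslated shores with 81.9%, intron shores with 82.5%, upstream shores with 84.2% and intergenic shores with 85.3%. The counting intervals of neighbours in that order did not overlap, the closest being intron-exon boundary (80.2 to 80.4) and exon shores (80.5 to 80.8). These intervals leave out the spread between windows, with standard deviations of 25.6 points in intron-exon boundary and 25.1 in exon shores. The order of sections with close means is therefore a description of the measured windows only. The 36 windows of 5′ untranslated shores averaged 70.9% (70.2 to 71.7), and too few windows stand behind that value to place it against promoters.

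Promoter shores had a longer low tail than intergenic shores, and their medians lay closer together than their means. Promoter shores held 11.9% of windows under 10% (384 windows) against 2.38% of intergenic shores (248 windows), while their medians in the vehicle control were 87.7% and 90.9%. The promoter mean differed from the intergenic mean by -13.5 points (-13.6 to -13.4), while the difference of the medians was -3.21 points. Promoter shores were below intergenic shores on 22 of 22 autosomes and had the lowest mean of the 7 larger sections on 19 of 22.

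Placed by the start of the assigned gene, shore methylation was lowest around the start and recovered sooner upstream than downstream. Window centres within 1000 bases before the start averaged 68.2% (68.1 to 68.3) in the vehicle control over 1628 windows, and those within 1000 bases after it 66.9% (66.8 to 67.0) over 1234. From 1000 to 2000 bases the upstream mean was 80.5% (80.4 to 80.6, 2158 windows) and the downstream mean 75.0% (74.9 to 75.0, 2577 windows). From 2000 to 3000 bases the means were 85.5% upstream and 83.4% downstream. Windows under 30% made up 20.4% and 23.3% of those within 1000 bases before and after the start, and 4.26% and 6.35% of those 2000 to 3000 bases away.

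Shore methylation also followed the state of the island beside it. For the 25719 shore windows joined to 1 measured island, the mean in the vehicle control was 70.4% (70.4 to 70.5) over 7834 windows beside islands under 10%, 79.9% over 2398 beside islands at 10 to 30%, 83.8% over 3080 beside islands at 30 to 70%, 86.0% over 3420 beside islands at 70 to 90% and 88.7% (88.7 to 88.8) over 8987 beside islands of at least 90%. Even beside islands under 10%, 71.1% of shore windows were at least 70% methylated and 19.4% were under 30%. An island's level is the mean of the windows annotated to it, which can include bases outside the island.

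Methylation rose with distance from the island beside the 3 classes of islands under 70%, and not beside the 2 classes above. Beside islands under 10%, windows whose nearest end was under 250 bases away averaged 45.8% (45.7 to 45.9, 1674 windows), then 66.0% from 250 to 500 bases, 74.2% from 500 to 1000, 81.3% from 1000 to 1500 and 81.3% at 1500 or more. From the nearest to the farthest windows the mean went from 65.4% to 85.7% beside islands at 10 to 30%, from 70.6% to 86.9% at 30 to 70% and from 86.7% to 86.3% at 70 to 90%. Beside islands of at least 90% the 5 distances gave 89.6%, 88.9%, 88.9%, 88.2% and 88.4%. The nearest windows beside islands under 10% were lower than the farthest ones on 22 of 22 autosomes.

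That rise was not limited to promoters. In windows under 250 bases from an island under 10%, the mean was 47.8% (47.6 to 48.0) for promoter shores, 48.1% (47.8 to 48.5) for intergenic, 43.9% (43.7 to 44.2) for intron, 41.5% (41.3 to 41.7) for intron-exon boundary, 47.3% for upstream, 52.3% for exon and 49.8% for 3′ untranslated shores. Here promoter and intergenic shores differed by less than their counting intervals, although over all shores the difference was -13.5 points. Promoter shores lay beside an island under 10% in 1454 windows and beside one of at least 90% in 563, and intergenic shores in 1322 and 4105. Over all distances beside islands under 10%, promoter shores averaged 62.3% (62.2 to 62.4) against 70.3% (70.2 to 70.4) for intergenic shores. Of these windows, 544 promoter and 225 intergenic ones lay under 250 bases from the island. Over all distances beside islands of at least 90%, promoter shores averaged 82.6% (82.4 to 82.8) against 89.2% (89.2 to 89.3) for intergenic shores.

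The 2 shores of an island did not always match. Of 4256 islands with measured shores on both sides, the sides differed by a median of 5.84 points in the vehicle control. In 327 islands (7.68%) one side was under 30% and the other at least 70%, and this share was 17.3% among the 1107 islands under 10% and 1.89% among the 1534 islands of at least 90%. Of the 52 islands with both sides under 30%, 50 were themselves under 10%.

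Shores of HOX genes and lineage transcription factors were lower than those of most genes. Of 9539 genes with a symbol and a shore window of at least 100 calls in all libraries, 83.5% had a mean shore β-value of at least 70% in the vehicle control and 7.60% one under 30%, with a median of 89.9%. The lists below were compiled from general knowledge, with earlier results of these data known. The gene is the one the table assigns, which may be some distance away.

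HOX genes encode the homeodomain factors that pattern the body axis. Of 39 listed, 17 had a window of that depth, with a median of 24.5%, and 13 were under 30%, 4 between 30 and 70% and 0 at 70% or more. HOXC4 averaged 6.72% in the vehicle control, 5.56% under etoposide, 3.43% under propyl gallate, 6.85% under theophylline and 3.62% under 5-aza-dc, over 3 windows. HOXC8 had 7.89%, 12.5%, 6.58%, 7.85% and 7.71% in 1 window. At the top of the list were HOXC11 with 50.3%, 41.2%, 38.3%, 39.4% and 44.2%, and HOXB1 with 54.8%, 61.0%, 66.1%, 65.9% and 47.2%. In the HOXC11 window the vehicle control was the highest of the 5 libraries, and in the HOXB1 window 5-aza-dc was the lowest.

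Transcription factors that set germ layers and lineages were also low. Of 19 measured at that depth out of 42, 14 were under 30%, 4 between 30 and 70% and 1 at 70% or more, with a median of 15.5%. SOX1, a neural progenitor factor, had 1.69% in the vehicle control, 1.36% under etoposide, 2.73% under propyl gallate, 2.95% under theophylline and 0.302% under 5-aza-dc. PAX6, a factor of eye and brain development, had 1.94%, 2.72%, 2.31%, 1.80% and 1.34% over 2 windows. FOXA1, an endoderm factor, reached 65.3% in the vehicle control over 2 windows that differed widely, one of 39.1% and one of 91.5%. TBX6, a factor of paraxial mesoderm, had 90.8%, 98.2%, 93.2%, 95.0% and 95.1%.

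Many germline genes are silenced by promoter methylation in somatic cells. All 10 of the 35 listed with a window of that depth were at 70% or more, with a median of 92.1%, which is near the 83.5% and 89.9% of all genes. The range ran from MOV10L1 (87.5%) and FKBP6 (88.1%) to TDRD12 (94.2%) and DDX4, an RNA helicase of germ cells. The DDX4 window had 95.8% in the vehicle control, 96.0% under etoposide, 95.6% under propyl gallate, 96.2% under theophylline and 94.6% under 5-aza-dc. MOV10L1, FKBP6 and TDRD12 act in the piRNA pathway, which silences transposons in germ cells.

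Pluripotency genes were split. Of 11 measured out of 25, 3 were under 30%, 2 between 30 and 70% and 6 at 70% or more. The lowest were TBX3, with 0% in the vehicle control, 3.79% under etoposide, 5.51% under propyl gallate, 6.43% under theophylline and 0% under 5-aza-dc in 1 intergenic window whose shallowest library had 112 calls, and OTX2, with 0.463%, 0.722%, 0.903%, 0.993% and 0.978%. The highest were POU5F1, which encodes OCT4, with 90.6%, 92.0%, 91.2%, 93.3% and 88.1% in a window 18731 bases from the gene start, and ZFP42 with 94.8%, 95.5%, 95.8%, 93.6% and 94.1% in windows at least 38230 bases away. The TBX3 zeros were 0 of 162 and 0 of 140 calls, which allow up to 1.85% and 2.14% (3 calls of the total). These POU5F1 and ZFP42 windows were intergenic and not at the promoter.

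Imprinted genes are expressed from the copy of 1 parent and carry methylation on 1 copy at their control regions. Of 15 measured out of 47, 2 were between 30 and 70% and 13 at 70% or more, with a median of 86.1%. H19, a non-coding RNA expressed from the maternal copy, averaged 67.8% over 6 windows that ranged from 4.36% to 93.8%, and its intron window 470 bases from the gene start had 57.5%, 54.5%, 52.2%, 57.4% and 56.6% in the 5 libraries. PLAGL1, a zinc finger factor, had 69.6% in the vehicle control, 52.8% under etoposide, 68.3% under propyl gallate, 61.9% under theophylline and 56.6% under 5-aza-dc. At the upper end stood PEG3 with 93.9% and HERC3 with 94.2%. The PEG3 window had 93.7%, 94.9% and 90.4% under etoposide, propyl gallate and theophylline and 84.8% under 5-aza-dc.

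The genes of the methylation machinery and the loci reported to vary after reprogramming were near the level of all genes. For the machinery, 10 of 17 were measured, and 9 were at 70% or more, where 83.5% of all genes were, with a range from DNMT3B (69.4%) and UHRF1 (72.9%) to TET3 (94.9%) and DNMT1 (95.0%). The DNMT3B mean hid a promoter window of 1.51% beside 4 windows of 74.5% to 93.7%. DNMT1, the target of 5-aza-dc, had 95.0% in the vehicle control, 96.8% under etoposide, 97.4% under propyl gallate, 95.3% under theophylline and 91.4% under 5-aza-dc over 3 windows. For the reprogramming loci, 14 of 28 were measured, and 11 (78.6%) were at 70% or more, with a median of 89.2%, from SLITRK3 (0.765%) and IRX6 (10.3%) to PCDHB9 (93.1%) and C9orf64 (94.9%).

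After 5-aza-dc the shore mean was lower than in every other library. The difference from the vehicle control was -1.31 points (-1.35 to -1.27), with 60.8% of windows lower and 38.6% higher, and the mean was lower on 22 of 22 autosomes. Etoposide differed by 0.461 points (0.425 to 0.496), propyl gallate by 0.509 (0.474 to 0.543) and theophylline by 0.925 (0.891 to 0.960), each higher on 22 of 22 autosomes. In the same order, the differences over all windows were 0.513, 0.566 and 0.975 points, each larger than in shores. In islands they were 0.178, 0.176 and 0.442 points, each smaller than in shores. The 4 pairs of libraries that include 5-aza-dc differed by 1.31 to 2.24 points, and the 6 pairs without it by 0.0481 to 0.925 points. All 4 differences share the vehicle control library. Against the mean of the other 4 libraries, 5-aza-dc differed by -1.78 points.

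The 5-aza-dc difference was -0.969 points in islands, -1.10 in shelves and -0.995 away from islands, so the shore value was the largest of the 4 classes in this pair of libraries. The same order did not hold at every level. Among windows of 30 to 70%, shores differed by -3.37 points (-3.61 to -3.13) and islands by -3.78 (-3.90 to -3.66), and among windows of 10 to 30%, shelves differed by -3.32 points (-3.84 to -2.79) and shores by -2.64 (-2.93 to -2.34), which overlap. At 70 to 90% shores differed by -1.79 points (-1.87 to -1.71) and islands by -1.76 (-1.84 to -1.67). At 90% or more shores differed by -0.836 (-0.877 to -0.795) and islands by -0.802 (-0.836 to -0.769). Shore and island intervals overlapped in both of these classes, which hold most shore windows. Under 10% shores differed by -0.677 (-0.806 to -0.547), islands by -0.310 (-0.323 to -0.298) and shelves by -0.986 (-1.22 to -0.749).

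By gene section the 5-aza-dc difference ran from -1.54 points (-1.65 to -1.42) in promoter shores to -1.15 (-1.21 to -1.08) in intergenic shores. Intron-exon boundary shores had -1.49, intron shores -1.32, exon shores -1.31, 3′ untranslated shores -1.31 and upstream shores -1.29, and the 36 windows of 5′ untranslated shores had -2.97 (-4.21 to -1.73). The promoter value was more negative than the intergenic value on 15 of 22 autosomes. The gap was -0.392 (-0.525 to -0.259) over all windows, -0.232 with at least 30 calls in all libraries and -0.600 when calls were pooled. Split by level, the gap was clear of the counting intervals only at 70 to 90%, with -2.52 points (-2.76 to -2.28) for 952 promoter windows against -1.54 (-1.67 to -1.41) for 3211 intergenic windows. At 30 to 70% the values were -2.98 and -2.61, with overlapping intervals. Under 10%, at 10 to 30% and at 90% or more the promoter value was the less negative one, again with overlapping intervals, for example -0.707 against -0.807 at 90% or more.

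Theophylline gave the highest mean in each of the 7 larger sections, from 0.785 points above the vehicle control in promoter shores to 1.06 in upstream shores. In exon shores theophylline was above etoposide by 0.106 points (-0.128 to 0.340), so these libraries were not separated there. Etoposide and propyl gallate lay between 0.313 and 0.761 points above it in the same sections. Etoposide and propyl gallate differed from each other by 0.0481 points over all shores. In the 36 windows of 5′ untranslated shores all 4 chemicals had lower means than the vehicle control, with propyl gallate at -0.512 (-1.68 to 0.652).

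Large differences at single windows were rare. A window was called when Fisher's exact test on its calls, which compares 2 libraries and not the conditions, gave an adjusted p under 0.01 over all 288391 windows and the β-values differed by at least 25 points. For 5-aza-dc, 77 shore windows (0.256%) were called lower and 22 (0.0731%) higher, beside 0.235% and 0.0742% of all windows. For etoposide, 24 (0.0798%) were called lower and 32 (0.106%) higher, beside 0.0908% and 0.0992%. For propyl gallate, 29 (0.0964%) were lower and 28 (0.0931%) higher, beside 0.0825% and 0.0936%. For theophylline, 31 (0.103%) were lower and 29 (0.0964%) higher, beside 0.0690% and 0.106%. The shore shares were near those of all windows except for theophylline lower, where islands had 0.0764%, shelves 0.0503% and windows away from islands 0.0636%, and this excess of the shore share was not tested.

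By section, the 77 windows called lower after 5-aza-dc were 21 intergenic, 18 intron, 14 upstream, 10 intron-exon boundary, 9 promoter, 3 exon and 2 3′ untranslated windows. As shares of each section these were 0.433% of exon, 0.385% of upstream, 0.294% of intron, 0.278% of promoter, 0.224% of 3′ untranslated, 0.201% of intergenic and 0.199% of intron-exon boundary windows, so promoters were in the middle of the order. Called windows were shallow: the 221 shore windows called for any chemical had a median of 35 calls in their shallowest library, against 366 for all shore windows, and 22 of them had at least 100 calls in all 5. Requiring 30 calls in all libraries left 46 windows lower and 15 higher after 5-aza-dc, without a share over all windows at that setting. Of the 221, 193 had a mean β-value between 30 and 90%, 180 were called for 1 chemical, 32 for 2, 8 for 3 and 1 for all 4, with the vehicle control shared by all these comparisons. None of the 241 shore windows of the 7 gene lists was called for any of the 4 chemicals, but only 0.735% of all shore windows were, so few calls could have fallen on so short a list. Of the genes with enough calls, 6246 of 9539 were lower after 5-aza-dc with a median difference of -1.10 points, and in the lists 13 of 17 HOX genes (-0.386), 14 of 19 lineage factors (-1.27), 6 of 10 germline genes (-0.785), 7 of 14 reprogramming loci (-0.0869), 6 of 15 imprinted genes (0.364), 4 of 10 machinery genes (0.125) and 3 of 11 pluripotency genes (0.515) were lower, without a test.

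The windows named here had at least 100 calls in all libraries and were among the most changed by the rule stated in the methods. The largest fall after 5-aza-dc was in a window at an intron-exon boundary of the gene ENSG00000286760 (chr6:166343001-166344000). Its β-value was 61.7% (95% Wilson interval 58.6 to 64.7) in the vehicle control, 57.6% under etoposide, 41.4% under propyl gallate, 62.4% under theophylline and 12.6% (9.26 to 17.1) under 5-aza-dc, from 595 of 964 and 35 of 276 calls in the first and last. The adjusted p was 2.43e-46 (Fisher's exact test, Benjamini-Hochberg). The window touches an island with a mean of 2.44%, and propyl gallate was the next lowest library.

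In 4 other windows 5-aza-dc was also the lowest library. An intron-exon boundary shore of SLC45A4, a solute carrier (chr8:141212001-141213000), had 97.4% in the vehicle control, 94.9% under etoposide, 94.5% under propyl gallate, 97.2% under theophylline and 67.9% (61.3 to 74.0) under 5-aza-dc. An intergenic shore nearest to ENSG00000238224 (chr1:245591001-245592000) had 90.8%, 91.2%, 100%, 95.3% and 62.2% in the same order. A promoter shore of FRMPD3, a FERM and PDZ domain protein (chrX:107448001-107449000), had 89.0%, 78.1%, 85.7%, 84.1% and 60.7%. An intron-exon boundary shore of PLEKHA4, a pleckstrin homology domain protein (chr19:48838001-48839000), had 74.8%, 74.8%, 59.5%, 63.5% and 46.0%, with 5-aza-dc again the lowest. The counting interval of 5-aza-dc overlapped none of the other 4 in the SLC45A4, ENSG00000238224 and FRMPD3 windows, and its upper end in the PLEKHA4 window (52.3) was just under the lower end for propyl gallate (52.5).

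In 3 of the 4 largest rises after 5-aza-dc the other chemicals were also above the vehicle control by more than the counting intervals. SOCS2, a suppressor of cytokine and growth hormone signalling, had a promoter shore (chr12:93569001-93570000) with 23.1% (19.2 to 27.5) in the vehicle control, 37.3% under etoposide, 63.3% (54.3 to 72.0) under propyl gallate, 43.6% under theophylline and 57.5% (50.3 to 64.3) under 5-aza-dc. The adjusted p by Fisher's exact test was 3.74e-13 for 5-aza-dc and 4.74e-12 for propyl gallate. The interval of the vehicle control lay under those of the other 4 libraries.

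LRRC27 in an intron shore (chr10:132356001-132357000) had 53.8%, 76.5%, 77.8%, 74.3% and 85.9% in the vehicle control, etoposide, propyl gallate, theophylline and 5-aza-dc libraries. SLC3A2, the heavy chain of several amino acid transporters, had an intron shore (chr11:62858001-62859000) with 43.5%, 62.8%, 64.1%, 64.3% and 70.9%. In both windows it was the vehicle control that stood apart, since its counting interval lay under the other 4. CBLN3, a secreted cerebellar protein, had a promoter shore (chr14:24431001-24432000) with 5.05%, 10.6%, 10.3%, 8.92% and 28.2% (22.5 to 34.8), and there 5-aza-dc stood apart. The CBLN3 difference of 23.1 points was under 25 and was not called.

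After etoposide the largest fall was in an intergenic shore 7405 bases from HYAL3, of the hyaluronidase family (chr3:50291001-50292000), with 34.1% in the vehicle control, 0.671% under etoposide, 41.8% under propyl gallate, 19.6% under theophylline and 8.22% under 5-aza-dc. Etoposide was the lowest here and 5-aza-dc the next. A promoter shore of ENSG00000251828 had 71.9% and 47.7%, which is under 25 points and was not called. The rises were led by GMDS-DT, the divergent transcript of a GDP-mannose dehydratase gene, in an intron-exon boundary shore (chr6:2246001-2247000). Its β-value was 41.9% (37.6 to 46.3) in the vehicle control, 72.3% under etoposide, 84.4% (79.3 to 88.3) under propyl gallate, 52.3% under theophylline and 64.02% under 5-aza-dc. The counting interval of the vehicle control lay under those of all other libraries, the nearest being theophylline (47.2 to 57.2). The GMDS-DT window also led the rises after propyl gallate, with an adjusted p by Fisher's exact test of 4.28e-26.

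The other etoposide rises were an upstream shore of NBPF9, with 67.0% in the vehicle control and 86.8% to 95.6% in the other libraries, and an intergenic shore 49554 bases from UBASH3A, with 45.2% and 58.4% to 72.0%. NBPF9 belongs to a family of near-identical copies, so reads may be split among them and its value is uncertain. In both windows the vehicle control was the lowest library.

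After propyl gallate the falls included an intergenic shore near LINC00311, with 68.2% in the vehicle control and 42.0% under propyl gallate against 57.6% to 73.8% in the others, and a promoter shore of ENSG00000279694 with 77.0% and 53.3%, which was not called. The rises after GMDS-DT were SOCS2 and an intergenic shore 7107 bases from NMI, an interactor of STAT factors, which had 37.6% in the vehicle control, 38.7% under etoposide, 71.1% (65.0 to 76.2) under propyl gallate, 43.8% under theophylline and 45.1% under 5-aza-dc. Propyl gallate stood apart from all 4 other libraries in the NMI window.

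After theophylline an intergenic shore near ENSG00000231868 had 81.5% in the vehicle control and 56.6% under theophylline, and an intron shore of HYAL1, a hyaluronidase, 87.1% and 63.9%. The rises were an intergenic shore near MIR596 from 75.7% to 100%, an intron shore of DCHS1, a large protocadherin, from 61.3% to 85.3%, and an intron shore of RPH3AL from 36.4% to 59.9%. The vehicle control was the lowest library in each of these rises. In the MIR596 window the remaining libraries had 76.9% to 88.6%. In the DCHS1 window 5-aza-dc had 81.9%, and in the RPH3AL window etoposide and propyl gallate had 50.5% and 51.2%. These 5 windows differed by less than 25 points and were not called, but they are not all of the windows chosen for theophylline.

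Across the 24702 shore windows with at least 100 calls in all libraries, the range over the 5 libraries had a median of 5.90 points, and it reached 25 points or more in 68 windows (0.275%). For islands, shelves and windows away from islands these shares were 0.414%, 0.273% and 0.213%. The 5-aza-dc library was the lowest of the 5 in 39.0% of these shore windows, the vehicle control in 18.9%, etoposide in 15.7%, propyl gallate in 14.8% and theophylline in 11.5%. Theophylline was the highest in 28.9% and 5-aza-dc in 10.4%. Over all windows of that depth 5-aza-dc was the lowest in 36.8% and theophylline the highest in 28.4%, so the shore shares were near those of all windows.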

How the data were processed

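DNA of 5 iPSC libraries was measured by RRBS. The authors trimmed reads with Trim Galore 0.5.0, aligned them with Bismark 0.20.0, called CpG in windows of 1000 bases with methylKit 1.10.0, scaled coverage and kept windows with at least 10 calls. The labels' processing notes name hg38, and 97.4% of 32854 gene positions lay within 1000 bases of GRCh38.p14. The deposited counts of the vehicle control are unscaled. The deposited calls of the other libraries are a score, counts multiplied by 1.18 (etoposide), 1.09 (propyl gallate), 1.15 (theophylline) or 1.21 (5-aza-dc) and rounded, and undoing this returned the coverage in 100% of windows. The β-value is a fraction computed by the authors.

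Section means weight windows equally, with binomial counting intervals. Fisher's exact test (two-sided, Benjamini-Hochberg over all windows) used the recovered calls and was tested on simulated data with independent calls. Several calls can come from the same read and need not be independent. The simulation did not cover this, so it does not show that the adjusted p-values hold for the real calls. Named windows were those with at least 100 calls in all libraries and an adjusted p under 0.01, ranked by difference (6 falls and 4 rises for 5-aza-dc, 3 of each otherwise), and some of these, the largest fall for propyl gallate and for theophylline included, are not reported here. Named list genes were the 2 lowest and 2 highest per list. Members and lists were chosen with earlier results of these data known. Sequences were limited to RefSeq promoters in shore windows, before the gene start, because no genome of this build was used here. Python 3.11.15, scipy 1.17.1 and numba 0.67.0 were used.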

Additional observations from a re-analysis of the deposited data

How the results depend on the processing

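No paired analysis was possible because each condition has 1 library. The direction of each shore difference and of both promoter comparisons held under the alternatives listed here. The 5-aza-dc gap between promoters and intergenic shores had the other sign in 3 of 5 level classes. Pooling all calls gave shore differences of 0.527 (etoposide), 0.551 (propyl gallate), 1.14 (theophylline) and -1.39 (5-aza-dc) points, and against the mean of the other 4 libraries, an alternative chosen after seeing the data, theophylline gave 1.01 and 5-aza-dc -1.78. The promoter minus intergenic level was -13.2 with at least 30 calls, -15.3 pooled and -3.21 by the median, and the 5-aza-dc gap -0.232 with at least 30 calls and -0.600 pooled. With at least 30 calls in all libraries, windows called lower numbered 46 (5-aza-dc), 14 (etoposide), 18 (propyl gallate) and 18 (theophylline), and higher 18 (propyl gallate) and 19 (theophylline). At 10 points the calls, lower and higher, were 913 and 247 (5-aza-dc), 313 and 429 (etoposide), 270 and 414 (propyl gallate) and 205 and 479 (theophylline), so theophylline had more higher than lower calls at 10 points and 29 against 31 at 25. With calls divided by 2 they were, in the same order, 17 and 6, 2 and 5, 8 and 4, and 4 and 1. No share over all windows was computed at these alternative settings, so the counts show only how the shore calls depend on the setting. Other settings kept counts within 1.5 times. The cause of these shifts was not tested. Called windows were shallow, and 1 library per condition leaves the spread between cultures unknown.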
